A study of Homo sapiens with 16 samples.

Results

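The genes examined here, 10 in all, encode major proteins which the liver secretes into blood plasma as carriers or protease inhibitors. They were chosen by symbol, with ALB, TTR, RBP4, TF and AHSG for carriers. SERPINA1 and AMBP stood for inhibitors, ITIH2 and ITIH3 for chains attached to the inhibitor from AMBP, and ITIH4 for a relative of these chains. Each symbol matched 1 row, so all 10 members were found among the 56969 Ensembl genes of the deposited table, and all 10 passed the filter on low values (16081 genes tested). The cells were HepG2, an established human liver cancer line. One group received siRNA against HCF-1 (8 libraries) and the other a control siRNA (8 libraries), in both cases in 2 rounds of transfection set 2 days apart, with RNA taken 2 days after the second round. All 16 libraries come from the same line and were made from total RNA with a stranded mRNA kit. The labels call the 8 samples of a group biological replicates. HCF-1, encoded by HCFC1, is a cofactor that transcription factors recruit to promoters, and the series title concerns promoters bound by the insulin receptor.

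Albumin binds fatty acids, bilirubin and many drugs and accounts for much of the osmotic pressure of plasma. Transthyretin (TTR) carries thyroid hormone and also holds retinol-binding protein (RBP4), which brings vitamin A out of the liver. Transferrin (TF) carries iron to cells through its receptors TFRC and TFR2, and fetuin-A (AHSG) keeps calcium phosphate from precipitating. On the inhibitor side, alpha-1-antitrypsin (SERPINA1) blocks neutrophil elastase. AMBP encodes a precursor that is cut into alpha-1-microglobulin and bikunin, a Kunitz-type inhibitor, and the ITIH genes encode heavy chains, several of which are linked to bikunin and passed on to hyaluronan in the matrix. Hepatocytes make these proteins under factors such as HNF4A, FOXA and C/EBP proteins, and HepG2 cells are known for keeping much of this output.

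Of the 10 genes, 9 rose after HCF-1 siRNA, 0 fell and 1, ITIH4, did not pass (limma on log2(normalized count + 1), with Benjamini-Hochberg adjustment over all genes tested, adjusted p under 0.05). Normalized counts are reads per gene that the authors scaled between libraries, and every log2 fold change here is on that log2 scale. Among all genes tested 18.2% were called higher and 18.3% lower, 36.6% in either direction. For 7 of the 10, every HCF-1 siRNA library lay above every control siRNA library, which was so for 4.59% of all genes tested, against 5.23% in which every HCF-1 siRNA library lay below every control siRNA library. Increases of at least 1.5-fold were called for 2 of them, ITIH3 and TTR, against 5.65% of all genes. The median log2 fold change of the 10 was 0.44, against 0.0064 over all genes tested. Most of the 10 have high normalized counts, and of the 423 genes with a mean of at least 10000 normalized counts 30.5% were called higher and 22.5% lower, with a median of 0.018. How many of these 423 separated the groups without overlap was not counted. Together the 10 genes took 2.44% ± 0.117 of a library's reads in the HCF-1 siRNA group and 1.96% ± 0.110 in the control siRNA group (SD, n = 8 each). In bulk RNA, a change in the share of cells that express a gene and a change in its RNA per cell cannot be told apart.

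**Figure D1:**
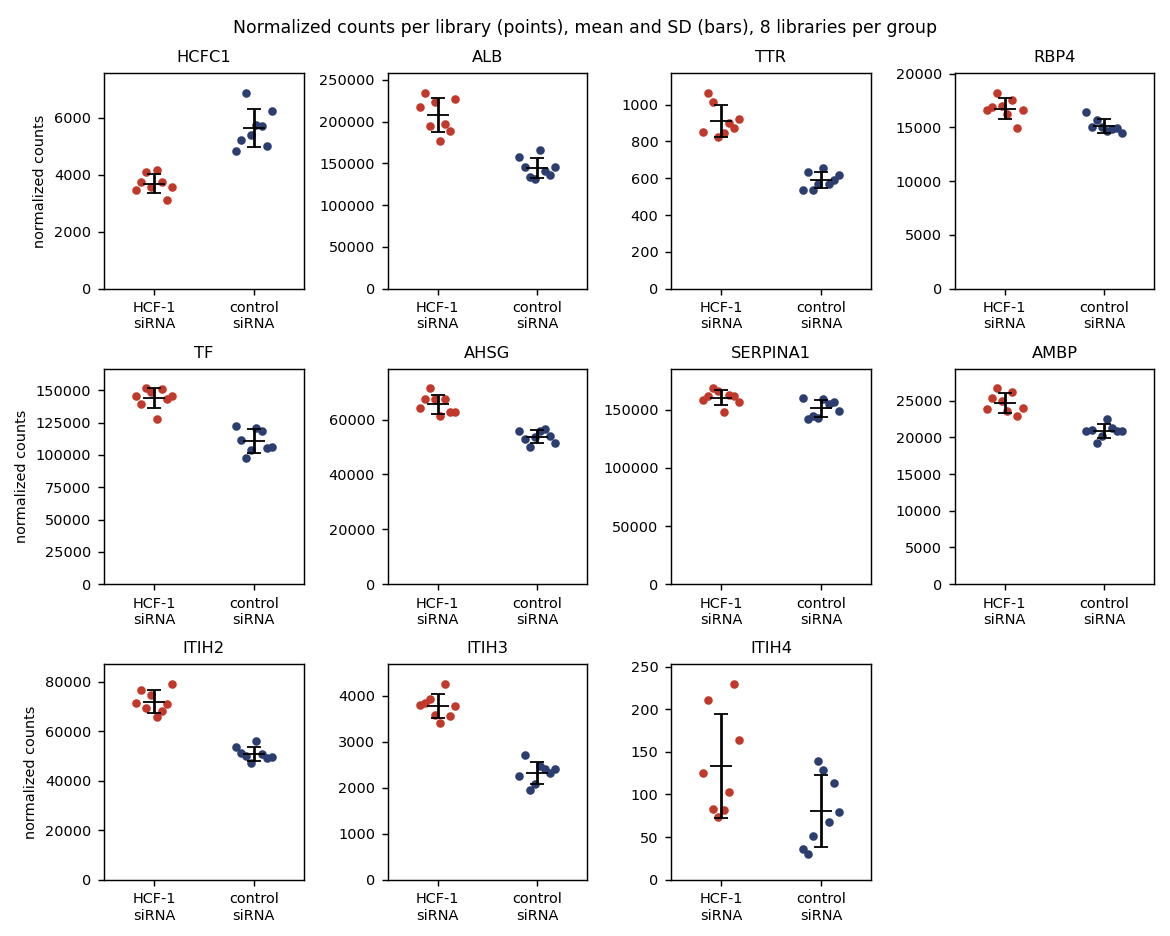
Normalized counts (vertical axes, from 0) of HCFC1 and of the 10 plasma protein genes in each of 8 HCF-1 siRNA and 8 control siRNA libraries; points are libraries, and bars give the mean and SD. For 7 of the 10 genes every HCF-1 siRNA point lies above every control siRNA point, while SERPINA1, RBP4 and ITIH4 overlap; HCFC1 is lower in all 8 HCF-1 siRNA libraries.

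The targeted gene was lower in every HCF-1 siRNA library. HCFC1 had 3112 to 4171 normalized counts (median 3654) in HCF-1 siRNA libraries, against 4851 to 6878 (median 5548) in control siRNA libraries, so that 65.4% of the control mean remained (log2 fold change -0.61 ± 0.07 SE, adjusted p = 4.52e-06; two-sided exact permutation p = 1.55e-04, the smallest that 12870 splits can give). Recovered reads per library ran from 25098840 to 43186890 in the HCF-1 siRNA group and from 21030830 to 32820459 in the control siRNA group, so the HCF-1 siRNA libraries were the deeper ones on average. Liver markers were present throughout: all 8 of a list of 8 (AFP, APOA1, APOA2, APOB, FGB, FGG, GPC3 and HNF4A) were tested, 4 rose and 2 fell (FGB and FGG), and their summed level was 518225 to 630929 normalized counts in HCF-1 siRNA libraries and 434867 to 515312 in control siRNA libraries. Endothelial markers (5 of 6 found, KDR and TEK at 0 throughout, 1 fell) summed to 265 to 421 normalized counts in HCF-1 siRNA libraries and 397 to 537 in control siRNA libraries. Fibroblast markers (6 of 6 found, LUM under 10 throughout, 1 fell) summed to 2541 to 3282 in HCF-1 siRNA libraries and 2562 to 3341 in control siRNA libraries. Blood markers (6 of 6 found, HBB and CD3E at 0 throughout, none called) summed to 28889 to 35104 in HCF-1 siRNA libraries and 27910 to 32626 in control siRNA libraries, almost all of it LYZ. Bile duct markers (5 of 5 found, CFTR under 10 throughout, 1 rose and 3 fell) summed to 21736 to 23856 in HCF-1 siRNA libraries and 26578 to 29604 in control siRNA libraries, and the part of these lower markers in the members' changes was not tested.

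Since 9 of the 10 genes rose, their promoters were searched for short motifs. These were the general promoter elements TATAAA and CCAAT, and letters of C/EBP, of ZNF143 and THAP11, of E2F and of the GABP type. Sites of HNF4A and FOXA factors were not searched. RefSeq windows on build GRCh38.p14, from 250 bases before to 50 after a start, were given for 8 of the 10 genes (12 windows, TF, RBP4 and SERPINA1 having more than 1); TTR and ITIH2 are named only. These windows are shown for the gene of albumin, the gene with the largest called increase and the gene with the smallest. Capitals mark CCAAT, or TTGCNNAA of C/EBP, on either strand. Of the 2 windows of SERPINA1, 1 is given.
ALB (chr4:73404037-73404336, plus strand): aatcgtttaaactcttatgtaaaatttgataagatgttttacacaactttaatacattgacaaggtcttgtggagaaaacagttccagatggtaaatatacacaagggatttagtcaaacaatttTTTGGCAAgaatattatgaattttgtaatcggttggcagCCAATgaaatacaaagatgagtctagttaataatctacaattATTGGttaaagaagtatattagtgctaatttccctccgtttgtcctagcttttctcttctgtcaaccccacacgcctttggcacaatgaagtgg
ITIH3 (chr3:52794546-52794845, plus strand): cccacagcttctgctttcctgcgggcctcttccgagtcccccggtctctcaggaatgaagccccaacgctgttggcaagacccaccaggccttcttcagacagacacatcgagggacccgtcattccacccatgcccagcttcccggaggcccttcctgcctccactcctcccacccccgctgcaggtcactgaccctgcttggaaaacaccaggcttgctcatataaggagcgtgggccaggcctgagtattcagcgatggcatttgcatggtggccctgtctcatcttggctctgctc
SERPINA1 (chr14:94388553-94388852, minus strand): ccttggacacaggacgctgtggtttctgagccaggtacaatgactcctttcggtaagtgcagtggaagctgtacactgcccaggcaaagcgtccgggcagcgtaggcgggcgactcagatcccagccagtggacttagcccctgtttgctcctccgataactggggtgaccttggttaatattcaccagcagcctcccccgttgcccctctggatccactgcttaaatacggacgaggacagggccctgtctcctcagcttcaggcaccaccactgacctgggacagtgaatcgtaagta
CCAAT stood in 5 of the 12 windows, 1 each of ALB, AMBP, ITIH4, RBP4 and TF, and in 34.6% of the 35116 windows of all genes. TTGCNNAA stood in 4 of the 12, 1 each of AHSG, ALB, RBP4 and TF, and in 10.5% of all. The windows shown for ITIH3, at a 1.63-fold change, and SERPINA1, at 1.06-fold, hold neither, while that of ALB, at 1.43-fold, holds both. The core of the motif shared by ZNF143 and THAP11, factors that recruit HCF-1, stood in 0 of the 12 windows and in 0.988% of all windows. TTTCCCGC of E2F stood in 0 of 12 and in 1.63% of all. CCGGAAG, of the GABP type, stood in 2 of the 12, 1 each of AHSG and TF, and in 10.3% of all. TATAAA stood in 3 of the 12, all of RBP4 and so in 1 of the 8 genes, and in 11.5% of all windows. The RBP4 windows overlap, and the same TATAAA stretch was counted in more than 1 of them. Both strands were searched, overlaps between motifs were not removed, and a missing match says only that these letters are not in the window.

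Albumin RNA was higher in every HCF-1 siRNA library. ALB (ENSG00000163631) had 177444 to 234599 normalized counts with a median of 207224 in HCF-1 siRNA libraries, against 131276 to 166204 with a median of 143432 in control siRNA libraries. The groups did not overlap, and the lowest HCF-1 siRNA library stood above the highest control. The fold change was 1.43 (log2 0.52 ± 0.06 SE, adjusted p = 4.51e-06, 8 of 8 libraries above all controls). Its neighbour and relative AFP, the fetal albumin-like carrier, rose with it, to 31797 ± 3610 in HCF-1 siRNA libraries against 21252 ± 1976 normalized counts in control siRNA libraries (log2 0.58 ± 0.07 SE, adjusted p = 5.29e-06).

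The partners of the retinol carrier complex rose by different amounts. TTR (ENSG00000118271) had 822 to 1064 normalized counts (median 885) in HCF-1 siRNA libraries, against 536 to 656 (median 580) in control siRNA libraries. All 8 HCF-1 siRNA libraries were above all controls, a 1.55-fold change (log2 0.63 ± 0.06 SE, adjusted p = 1.14e-06). RBP4 (ENSG00000138207) had 14952 to 18221 normalized counts (median 16764) in HCF-1 siRNA libraries, against 14444 to 16447 (median 14970) in control siRNA libraries. These groups overlapped, with 6 of 8 HCF-1 siRNA libraries above all controls, and the change was 1.11-fold (log2 0.15 ± 0.04 SE, adjusted p = 0.00493). STRA6, the cell-surface receptor of RBP4, did not pass, with a mean of 309 in HCF-1 siRNA libraries against 360 normalized counts in control siRNA libraries (log2 -0.21). TTR is a small number of reads here, 766 to 1522 per HCF-1 siRNA library and 437 to 723 per control siRNA library, and no other gene shares its exons in the GENCODE release 29 annotation. Whether the annotation used for counting took reads from TTR was not tested, so its low level is a value of this table.

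The iron carrier and the mineral carrier rose as well. TF (ENSG00000091513) had 127611 to 151517 normalized counts (median 145553) in HCF-1 siRNA libraries, against 97413 to 122436 (median 108631) in control siRNA libraries. The groups did not overlap, and the change was 1.31-fold (log2 0.38 ± 0.05 SE, adjusted p = 7.47e-06). AHSG (ENSG00000145192) had 61316 to 71389 normalized counts (median 65858) in HCF-1 siRNA libraries, against 49961 to 56741 (median 53821) in control siRNA libraries. These did not overlap either, at a 1.22-fold change (log2 0.29 ± 0.03 SE, adjusted p = 6.16e-06). Both transferrin receptor genes rose: TFR2, the hepatocyte iron sensor, had 1593 ± 198 normalized counts in HCF-1 siRNA libraries against 1111 ± 142 in control siRNA libraries (log2 0.52), and TFRC had 13179 ± 1041 in HCF-1 siRNA libraries against 11055 ± 534 in control siRNA libraries (log2 0.25).

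Of the inhibitors, alpha-1-antitrypsin had the smallest change of all 10 genes. SERPINA1 (ENSG00000197249) had 148230 to 168386 normalized counts (median 162015) in HCF-1 siRNA libraries, against 141597 to 160460 (median 151710) in control siRNA libraries. The groups overlapped, with 5 of 8 HCF-1 siRNA libraries above all controls. The change was 1.06-fold (log2 0.088 ± 0.03 SE, adjusted p = 0.039) and passed narrowly: the settings that ended the call included total-count scaling (log2 0.059), upper-quartile scaling and edgeR on recovered reads, and leaving out in turn HCF-1 siRNA replicate 2, 3, 4, 6 or 7 or control siRNA replicate 2, 3, 4 or 8. Over the alternatives its adjusted p ran from 0.0142 to 0.146.

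Bikunin's gene and the heavy-chain genes among the members all had higher means. AMBP (ENSG00000106927) had 22916 to 26685 normalized counts (median 24515) in HCF-1 siRNA libraries, against 19231 to 22483 (median 20918) in control siRNA libraries. There was no overlap, and the change was 1.18-fold (log2 0.24 ± 0.04 SE, adjusted p = 4.95e-05). ITIH2 (ENSG00000151655), the heavy chain 2 gene, had 65711 to 79139 normalized counts (median 71184) in HCF-1 siRNA libraries, against 47214 to 56216 (median 50362) in control siRNA libraries. It rose 1.41-fold without overlap (log2 0.50 ± 0.04 SE, adjusted p = 1.17e-07). ITIH3 (ENSG00000162267), the heavy chain 3 gene, had 3411 to 4254 normalized counts (median 3788) in HCF-1 siRNA libraries, against 1949 to 2702 (median 2367) in control siRNA libraries. It rose 1.63-fold without overlap (log2 0.70 ± 0.06 SE, adjusted p = 2.35e-07), the largest change among the 9 members that passed.

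ITIH4 was the one member that did not pass. ITIH4 (ENSG00000055955), a heavy-chain relative known as an acute-phase protein, had 73.4 to 230 normalized counts (median 114) in HCF-1 siRNA libraries, against 29.6 to 139 (median 73.2) in control siRNA libraries. The groups overlapped and both varied widely, with a coefficient of variation of 45.5% in HCF-1 siRNA libraries and 52.3% in control siRNA libraries, against at most 10.1% for the other 9 genes. Its log2 fold change was 0.79 with a 95% interval of 0.087 to 1.497 (adjusted p = 0.0735), and it passed without control siRNA replicate 4 (adjusted p = 0.0388) or 5 (adjusted p = 0.0439). Only 93 to 204 reads per HCF-1 siRNA library and 28 to 116 per control siRNA library stood behind it. In the GENCODE release 29 annotation 73.6% of the exonic bases of ITIH4 also belong to a longer gene on the same strand, listed here as RP5-966M1.6, which had 5.03 to 16.3 normalized counts in HCF-1 siRNA libraries and 0 to 10.2 in control siRNA libraries. No source used here says how reads that fit both genes were counted, so the level of ITIH4 is uncertain.

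**Figure D2:**
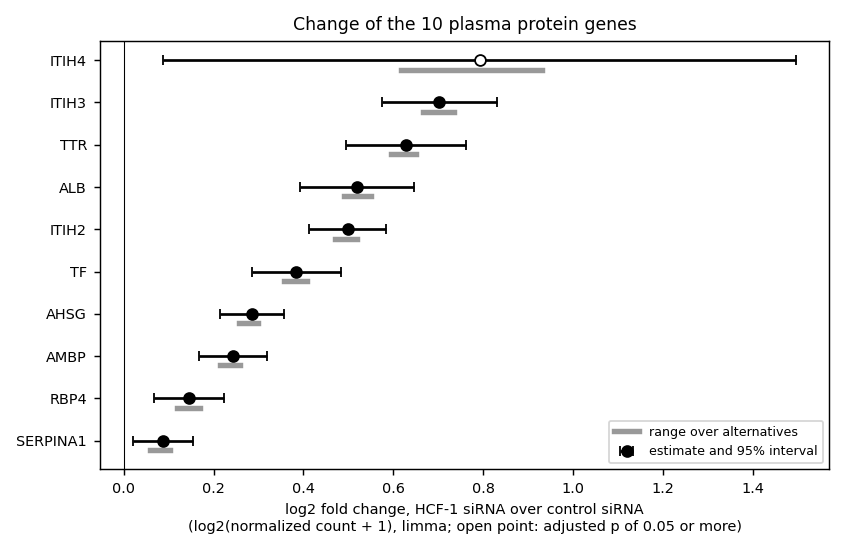
Log2 fold change of HCF-1 siRNA over control siRNA (horizontal axis) for the 10 plasma protein genes, with the 95% interval from limma and, in grey, the range over 26 alternatives. The estimates run from 0.088 for SERPINA1 to 0.79 for ITIH4, whose open point marks an adjusted p of 0.0735 and whose interval is the widest.

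The size of the change differed between some related genes. Of 10 pairs of related genes, the ratio of the first gene to the second differed between the groups in 5 (two-sided exact permutation test, Benjamini-Hochberg adjustment over the 10 pairs). RBP4 over TTR was lower, with a log2 ratio of 4.203 ± 0.122 in HCF-1 siRNA libraries and 4.69 ± 0.157 in control siRNA libraries (SD, n = 8 each), a difference of -0.48 ± 0.07 (SE, exact permutation adjusted p = 7.77e-04) seen in 8 of 8 libraries. ITIH3 over AMBP was higher, at -2.71 ± 0.0652 in HCF-1 siRNA libraries and -3.17 ± 0.110 in control siRNA libraries, a difference of 0.46 ± 0.05 (exact permutation adjusted p = 7.77e-04), again with no overlap. ITIH2 over AMBP was higher too, at 1.54 ± 0.120 in HCF-1 siRNA libraries and 1.29 ± 0.0604 in control siRNA libraries, a difference of 0.25 ± 0.05 (exact permutation adjusted p = 7.77e-04), with 7 of 8 HCF-1 siRNA libraries above all controls. ITIH3 over ITIH2 differed by 0.20 ± 0.07 (exact permutation adjusted p = 0.0162), with 3 of 8 libraries above all controls. SERPINA1 over its relative SERPINA3, antichymotrypsin, was lower, with a difference of -0.17 ± 0.04 (exact permutation adjusted p = 7.77e-04), with 7 of 8 HCF-1 siRNA libraries below all controls. SERPINA3 itself rose, to 27255 in HCF-1 siRNA libraries against 22880 normalized counts in control siRNA libraries (log2 0.25). In GENCODE release 29, 31.8% of the exonic bases of SERPINA3 belong also to another gene on its strand, so its count, and with it this ratio, may be split.

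The other 5 ratios did not pass. ALB over AFP differed by -0.059 ± 0.03 (exact permutation adjusted p = 0.0715) and AHSG over FETUB, the neighbouring fetuin-B gene, by 0.32 ± 0.14 (exact permutation adjusted p = 0.0715). Either passed with certain libraries left out: ALB over AFP without HCF-1 siRNA replicate 1 or 6 or control siRNA replicate 3 (exact permutation adjusted p from 0.0368 to 0.0404), and AHSG over FETUB without HCF-1 siRNA replicate 6 or 7 or control siRNA replicate 5 or 6 (exact permutation adjusted p from 0.0262 to 0.0466). FETUB had means of 128 normalized counts in HCF-1 siRNA libraries and 131 in control siRNA libraries, and its log2 fold change of -0.031 did not pass. TF over TFRC differed by 0.13 ± 0.08 (exact permutation adjusted p = 0.146). The ratios of ITIH4 to AMBP and to ITIH3 had standard errors of 0.37 and 0.38 and adjusted exact permutation p-values of 0.179 and 0.815.

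**Figure D3:**
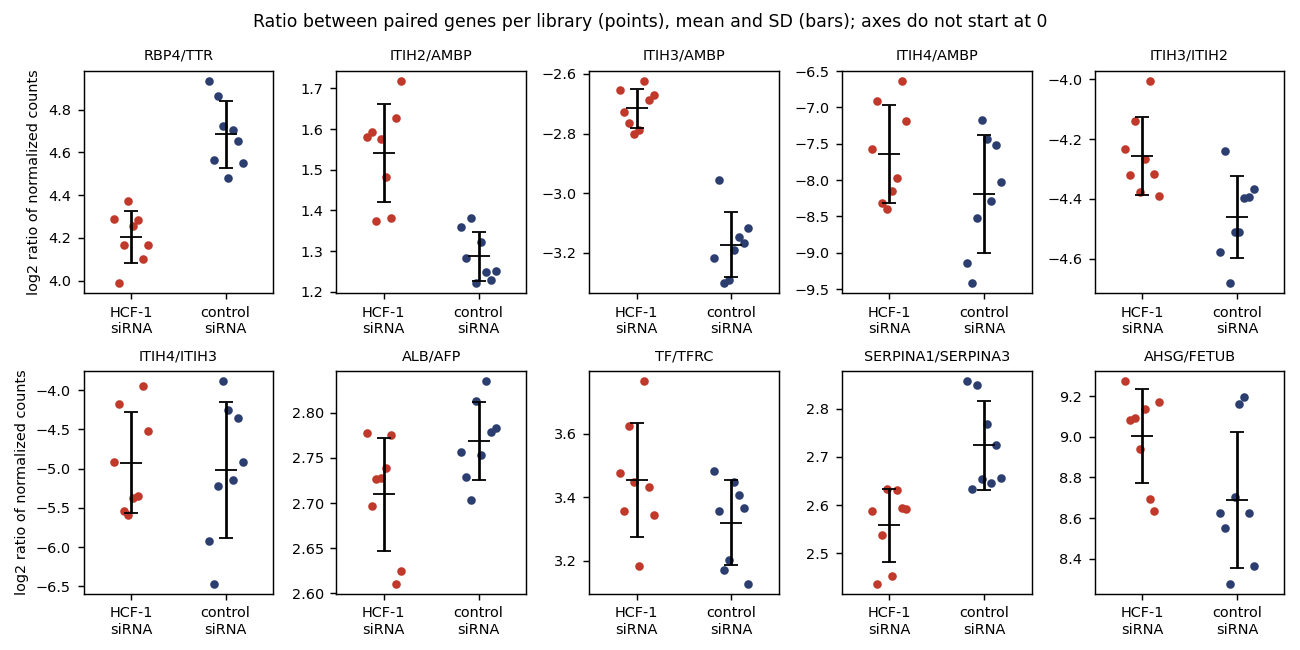
Log2 ratio of normalized counts between the genes of 10 pairs (vertical axes, not from 0) in each of 8 HCF-1 siRNA and 8 control siRNA libraries; points are libraries, and bars give the mean and SD. RBP4/TTR and ITIH3/AMBP separate the groups completely, and the ratios that hold ITIH4 spread the most.

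Levels of different genes were compared per kilobase of transcript, with lengths from GENCODE release 29. Per kilobase of the longest transcript ALB stood highest, at 91806 ± 9147 normalized counts per kb in HCF-1 siRNA libraries and 63962 ± 5292 in control siRNA libraries (SD, n = 8 each), followed by SERPINA1, AHSG, ITIH2, AMBP, RBP4, TF, ITIH3, TTR and ITIH4. In control siRNA libraries the ranges of ITIH2 and AMBP overlapped and no other neighbours in this order did; in HCF-1 siRNA libraries no neighbours overlapped. The order rests on the length chosen, since the longest annotated transcript of TF has 20602 bases and its longest coding sequence 2094. Per kilobase of coding sequence, a measure added after the length of TF was seen, SERPINA1 stood first, at 127970 ± 5019 in HCF-1 siRNA libraries and 120473 ± 6008 in control siRNA libraries, then ALB, at 113715 ± 11329 in HCF-1 siRNA libraries and 79226 ± 6555 in control siRNA libraries, and then TF, at 68851 ± 3711 in HCF-1 siRNA libraries and 52838 ± 4315 in control siRNA libraries. On this scale the ranges of SERPINA1 and ALB overlapped in HCF-1 siRNA libraries, as did those of TF and AHSG, RBP4 and ITIH2, ITIH2 and AMBP, and TTR and ITIH3. In control siRNA libraries TF overlapped AHSG, AMBP overlapped ITIH2 and TTR overlapped ITIH3. TTR, ITIH3 and ITIH4 were the 3 lowest on both scales.

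**Figure D4:**
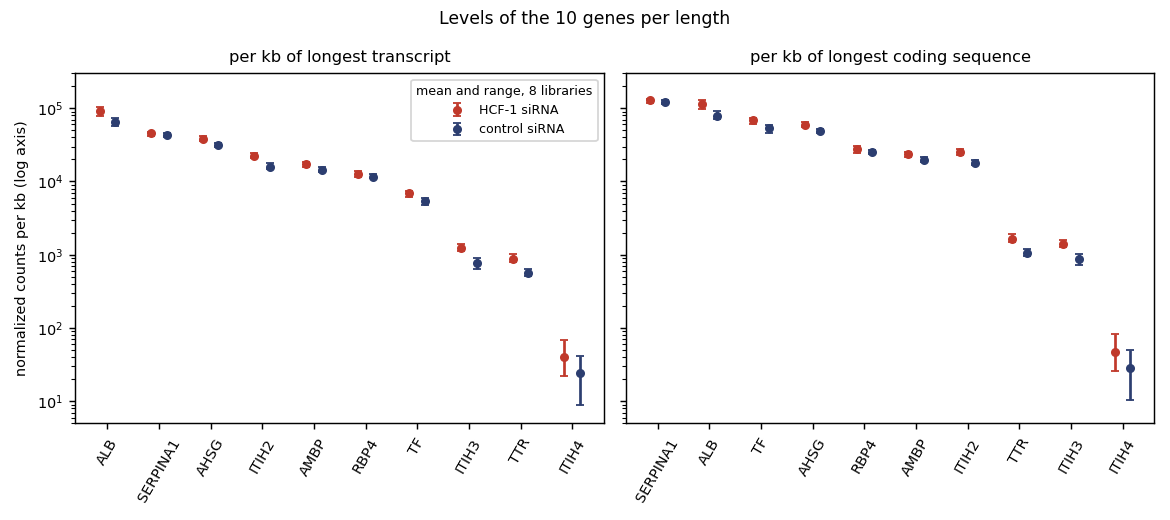
Levels of the 10 genes in normalized counts per kb (log axis), per kb of the longest transcript on the left and of the longest coding sequence on the right, with HCF-1 siRNA left of control siRNA for each gene; points are means and bars the range over 8 libraries. TTR, ITIH3 and ITIH4 sit lowest in both panels, and TF moves from rank 7 to rank 3.

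Of 18 genes tested among 20 for other plasma carriers, 9 rose, 2 fell and 7 stayed short of the threshold. Their median change was 0.17 on the log2 scale. Over all genes tested 18.2% were called higher and 18.3% lower, with a median of 0.0064, and the counts of the lists that follow stand beside the same shares. APOH, a phospholipid-binding plasma protein, had 41944 ± 4468 normalized counts in HCF-1 siRNA libraries against 26903 ± 2470 in control siRNA libraries (log2 0.64, adjusted p = 1.56e-06). SEPP1, the selenium carrier, had 27151 ± 1028 in HCF-1 siRNA libraries against 19475 ± 1126 in control siRNA libraries (log2 0.48, adjusted p = 3.86e-08), and SERPINA7, the thyroxine carrier, had 6873 ± 399 in HCF-1 siRNA libraries against 5077 ± 280 in control siRNA libraries (log2 0.44, adjusted p = 6.60e-07). The copper carrier CP and the acute-phase carriers ORM1, ORM2 and HP rose too (log2 0.42, 0.31, 0.37 and 0.13). The split of reads between the near-identical copies ORM1 and ORM2 is uncertain, and 36.1% of the exonic bases of SEPP1 are shared with genes on the opposite strand. Those that fell were LRG1 (log2 -0.19) and the cobalamin carrier TCN2 (log2 -0.71), and for both the groups overlapped. TCN2 was low, with a mean of 22.5 normalized counts in HCF-1 siRNA libraries against 39.1 in control siRNA libraries.

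Among 24 other secreted protease inhibitor genes, all tested, 12 rose, 4 fell and 8 stayed short of the threshold. Their median change was 0.20 on the log2 scale. SERPINA10, the protein Z-dependent inhibitor, had 1114 ± 73.6 normalized counts in HCF-1 siRNA libraries against 746 ± 45.8 in control siRNA libraries (log2 0.58, adjusted p = 3.30e-07). ITIH1, the heavy chain 1 gene beside ITIH3, had 177 ± 30.2 in HCF-1 siRNA libraries against 128 ± 25.3 in control siRNA libraries (log2 0.47, adjusted p = 0.0109), and ITIH5, another relative, did not pass (log2 -0.049). Broad inhibitor A2M rose as well (log2 0.38). The 4 that fell were SPINK1, SPINT1, a membrane-bound Kunitz inhibitor, and the metalloproteinase inhibitors TIMP1 and TIMP2. SPINK1 was low and its groups overlapped, with a mean of 20.8 normalized counts in HCF-1 siRNA libraries against 33.0 in control siRNA libraries. SPINT1 had 162 ± 31.2 normalized counts in HCF-1 siRNA libraries against 301 ± 53.8 in control siRNA libraries (log2 -0.89, adjusted p = 3.84e-05), and TIMP1 had 528 ± 35.9 in HCF-1 siRNA libraries against 854 ± 108 in control siRNA libraries (log2 -0.68, adjusted p = 3.06e-06).

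Genes of receptors and binding partners gave 6 that rose, 1 that fell and 7 short of the threshold, of 14 tested among 15. Their median change was 0.16 on the log2 scale. Beside the transferrin receptors, ASGR1 of the asialoglycoprotein receptor rose, with 10520 ± 868 normalized counts in HCF-1 siRNA libraries against 8739 ± 568 in control siRNA libraries (log2 0.27), as did LMAN1, a cargo receptor of the secretory pathway, with 8994 ± 872 in HCF-1 siRNA libraries against 7244 ± 707 in control siRNA libraries (log2 0.31). LMAN2 fell (log2 -0.25). FCGRT, which recycles albumin, did not pass (log2 -0.015). TNFAIP6, which moves heavy chains to hyaluronan, was below the filter.

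The liver transcription factor genes gave 7 that rose, 1 that fell and 8 short of the threshold, of 16 tested. Their median change was 0.099 on the log2 scale. ONECUT1 had 243 ± 42.8 normalized counts in HCF-1 siRNA libraries against 152 ± 46.9 in control siRNA libraries (log2 0.72, adjusted p = 0.0033). PROX1 (log2 0.48) and the bile acid receptor NR1H4 (log2 0.45) rose, and DBP, a circadian factor known to act on the albumin promoter, fell, with 125 ± 26.0 normalized counts in HCF-1 siRNA libraries against 205 ± 22.7 in control siRNA libraries (log2 -0.73, adjusted p = 1.74e-04). HNF4A rose by 0.13, FOXA1 by 0.18 and CEBPD by 0.27 on the log2 scale, while CEBPA (log2 -0.17) and FOXA2 (log2 -0.0048) did not pass.

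Secreted proteins pass through the endoplasmic reticulum. Of 40 genes for entry and export there, all tested, 8 rose, 12 fell and 20 stayed short of the threshold. Their median change was -0.025 on the log2 scale. Among all genes tested 18.2% were called higher and 18.3% lower. The share that rose was thus near the background and the share that fell was above it, and neither share was tested. The number that fell ran from 11 to 14 over the 26 alternatives. FURIN, a protease that trims many secreted precursors, had 3658 ± 475 normalized counts in HCF-1 siRNA libraries against 5359 ± 586 in control siRNA libraries (log2 -0.55, adjusted p = 5.08e-05). SEC13, a coat protein of export vesicles, had 4941 ± 352 in HCF-1 siRNA libraries against 6280 ± 354 in control siRNA libraries (log2 -0.35, adjusted p = 2.03e-05), and SEC61A2, a translocon channel paralog, had 110 ± 32.2 in HCF-1 siRNA libraries against 215 ± 68.5 in control siRNA libraries (log2 -0.95, adjusted p = 0.00239). MIA3, which loads large cargo for export, rose, with 2019 ± 252 in HCF-1 siRNA libraries against 1520 ± 123 in control siRNA libraries (log2 0.40, adjusted p = 3.18e-04). The count of 8 was 4 under total-count scaling and without the filter.

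**Figure D5:**
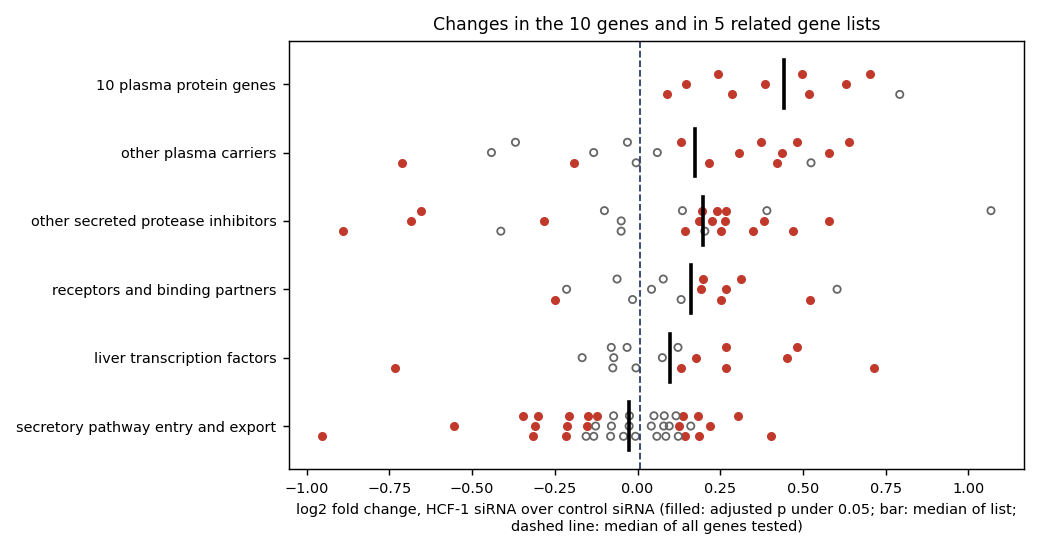
Log2 fold change of HCF-1 siRNA over control siRNA (horizontal axis) for each tested gene of the 10 plasma protein genes and of 5 related lists; filled points have an adjusted p under 0.05, vertical bars are list medians and the dashed line is the median of all genes tested. The medians run from 0.44 for the 10 genes to -0.025 for the secretory pathway list.

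Within a group, no relation between a member and HCFC1 passed the test. Over 20 relations, 10 genes in each group of 8 libraries, Pearson's r ran from -0.638 to 0.658 in HCF-1 siRNA libraries and from -0.627 to 0.0739 in control siRNA libraries. The highest was RBP4 in HCF-1 siRNA libraries (r = 0.658, exact permutation p = 0.0755, adjusted p = 0.640; Spearman's rho = 0.452, exact permutation p = 0.267, adjusted p = 0.934). None of the 20 had an exact permutation p under 0.05. Without the 2 libraries farthest from the median of HCFC1 that r was 0.917, while RBP4 in control siRNA libraries went from -0.267 to -0.869. By that step 16 of the 20 values of r moved by at least 0.3, so these values depend on which libraries are included. Some grew stronger, as for RBP4 in both groups. Whether shifts of this size are usual for so few libraries was not tested.

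Genes that followed the mean of the 10 genes most closely were looked for, as the correlation over 16 libraries with group means removed. The mean was of unscaled log2 values, so the member that varied most, ITIH4, weighed most in it. Its coefficient of variation was 45.5% in HCF-1 siRNA libraries and 52.3% in control siRNA libraries, against at most 10.1% for the other 9. Among 11459 genes with a mean of at least 100, the 4 given here were ODAM (r = 0.820), FBXO2 (r = 0.806), ARMC1 (r = 0.801) and CA5A (r = 0.775). Between the groups they went different ways: ODAM and CA5A rose (log2 0.28 each), FBXO2 fell (log2 -0.26), and ARMC1 (log2 -0.11, limma adjusted p = 0.0747) did not pass, but was called lower in DESeq2 and edgeR on recovered reads, under total-count scaling and without control siRNA replicate 3 (adjusted p from 0.021 to 0.0489). The correlation of each member with the mean of the other 9 ran from -0.260 for RBP4 to 0.548 for TTR. For ITIH4 it was -0.027. For every other member that mean holds ITIH4 and leans on it, so these values say little about the set as a whole.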

How the data were processed

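The deposited values are the authors' normalized counts, a signal for each Ensembl gene in each of 16 libraries. The submitters' processing notes name build hg19 and the tools DESeq2 1.16.1, featureCounts 1.4.4, STAR 2.4.1d and cutadapt 1.4.2. No source used here gives the annotation release, strand setting or filters. The column of HCF-1 siRNA replicate 1 lacks a digit in its name and was matched by the rest. Whole reads were recovered by dividing by 1 step per library (100% of values whole within 0.01 read). No 2 libraries of a group agreed within sampling noise (chi-square per degree of freedom 11.5 to 38.7). Depth sets the counting error, which is smallest for the abundant genes.

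Groups were compared with limma 3.58.1 in R 4.3.3 (trend and robust) on log2(normalized count + 1), keeping genes whose mean reached 10. The model was also run on simulated counts with 200 changed genes, all with a mean of at least 50. That run did not test the filter, or a share of changed genes as large as here. The pseudocount understates changes of low genes. Ratios were tested by exact permutation over libraries. Named genes were HCFC1, the 10 members, their pair partners, from each list up to 4 called genes that changed most and reached a mean of 50 in a group, and the genes most alike (4 given; some items are not reported here); further list members were named after their values were seen. The members, lists and pairs were chosen with earlier results of these data known. Alternatives were total-count and upper-quartile scaling, a filter at 50 or none, array weights, pseudocounts of 10 and 0.5, DESeq2 1.42.0 (6258 genes called) and edgeR 4.0.16 (5875 genes called) on recovered reads, each library left out, a block for replicate number, and other transcript lengths. Lengths and exon overlaps came from GENCODE release 29 (GRCh38) by identifier.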

Additional observations from a re-analysis of the deposited data

How the results depend on the processing

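Limma called 5879 genes, and the alternatives called 5163 to 6258. The number of members called higher was 8 to 10 over all 26 alternatives, and 0 were called lower in any. ALB, TTR, TF, AHSG, RBP4, AMBP, ITIH2, ITIH3 and the lower HCFC1 kept direction and call under all 26. SERPINA1 lost its call with a log2 fold change of 0.079 in edgeR, 0.059 under total-count scaling, 0.084 under upper-quartile scaling and 0.088 with the replicate block, and ran from 0.075 to 0.104 with 1 library left out. ITIH4 ran from 0.62 to 0.93 with 1 library left out and passed in 2 of those fits. The replicate numbers did not pair the libraries: same-numbered libraries correlated by -0.0738 to 0.0976 and 1 of 8 matched its own number best. With the replicate block 5484 genes were called, 8 members rose, and ITIH3 over ITIH2 (0.20) lost its call; the block changed no other member or ratio call than this and SERPINA1. With 1 library left out, the log2 difference ran from -0.069 to -0.045 for ALB over AFP, from 0.257 to 0.388 for AHSG over FETUB and from -0.117 to 0.252 for ITIH4 over ITIH3, and the log2 fold change of FETUB from -0.092 to 0.0129. Secretory pathway genes called higher were 5 in edgeR and under upper-quartile scaling, 4 without a filter and under total-count scaling, and 4 to 10 with 1 library left out. Receptor genes called lower were 2 under total-count scaling and 1 to 2 with 1 library left out, where their median ran from 0.125 to 0.214. Liver factor genes called lower were 1 to 2. The median of the other carriers was 0.261 at a filter of 50 and 0.156 to 0.258 with 1 library left out. Causes were not tested. Levels per kb changed with the length used, by construction. ITIH4 rests on the fewest reads of the 10.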

Other observations

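The genes next to the members were read from RefSeq (GRCh38.p14), 2 protein-coding genes on each side. Of 36 such neighbours that are not members, 26 were tested, 9 rose and 3 fell, with a median log2 fold change of 0.096, against 18.2% higher, 18.3% lower and a median of 0.0064 over all genes tested. Among those that rose, AFP, SERPINA6, SERPINA10 and ITIH1 are relatives of members and were already counted in the lists above. AFM, FETUB and ITIH5, which did not pass, and SRPRB, which fell, were counted there too. Around SERPINA1, its serpin relatives SERPINA10 (log2 0.58 ± 0.05 SE), SERPINA6 (log2 0.22 ± 0.04), the cortisol carrier, and SERPINA11 (log2 0.53 ± 0.03, adjusted p = 9.99e-09 in limma) all rose, against 0.088 for SERPINA1 itself; the differences between them were not tested. SERPINA11 had 3065 normalized counts in HCF-1 siRNA libraries against 2127 in control siRNA libraries.

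Beside AMBP, COL27A1, a fibrillar collagen gene, had 4297 normalized counts in HCF-1 siRNA libraries against 1640 in control siRNA libraries (log2 1.42 ± 0.11 SE, adjusted p = 6.85e-08 in limma). It is named after its values were seen. KIF12, the gene between them, rose with a low count (128 normalized counts in HCF-1 siRNA libraries against 70.4 in control siRNA libraries, log2 0.84 ± 0.29 SE). Beside TF, SRPRB, a subunit of the signal recognition particle receptor, fell to 1380 normalized counts in HCF-1 siRNA libraries, against 1721 in control siRNA libraries (log2 -0.32 ± 0.05 SE).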
